A study of Mus musculus with 2 samples.

Results

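The genes described are the 4 mouse metallothionein genes Mt1, Mt2, Mt3 and Mt4, their metal-sensing activator Mtf1, the zinc transporter genes of the exporter family Slc30a1 and Slc30a10, and those of the importer family Slc39a8 and Slc39a10. They are 9 of the 43346 Ensembl genes in the tables. They were chosen by name as a functional group, with their levels in these libraries already known, so the levels are given as a description with no test. All 9 were found by gene identifier. The data are paired-end RNA-seq of polyadenylated RNA from the mouse line G1E-ER4, which is immortalized and erythroid. The parent G1E line has no Gata1. G1E-ER4 expresses a fusion of GATA1 with the hormone-binding part of an estrogen receptor, and the estradiol named in the labels switches this protein on and starts red cell differentiation. The labels give neither the dose of estradiol nor its duration, and the line is male. There are 2 libraries in 1 group, labelled biological replicates 1 and 2, with 68901065 and 51923117 estimated counts. No other condition was analysed here, so nothing can be said of the effect of estradiol. Both libraries cite the same biosample record, so the spread between them may be technical.

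Metallothioneins are small cysteine-rich proteins that hold zinc and copper in metal-thiolate clusters and bind cadmium when it is present. Free zinc in the cell is sensed by MTF1, a zinc finger transcription factor that binds metal response elements in the promoters of Mt1, Mt2 and Slc30a1. SLC30 proteins move zinc out of the cytosol, and SLC39 proteins move it in. Developing red cells take up zinc for abundant zinc enzymes such as carbonic anhydrase, and the zinc finger factors GATA1 and KLF1 need it to fold.

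The upstream sequences of Mt1, Mt2 and Slc30a1 are shown because these are the members best known as MTF1 targets. They are the 250 bases before the RefSeq transcript start in GRCm38.p6, the build also called mm10, and all 3 genes lie on the plus strand. Capitals mark the core of the metal response element, spelled TGCACNC or TGCGCNC and searched on both strands, so a match on the other strand is printed as its complement read backwards. The Mt1 window is chr8:94178839-94179088, the Mt2 window chr8:94172368-94172617 and the Slc30a1 window chr1:191906531-191906780.
Mt1: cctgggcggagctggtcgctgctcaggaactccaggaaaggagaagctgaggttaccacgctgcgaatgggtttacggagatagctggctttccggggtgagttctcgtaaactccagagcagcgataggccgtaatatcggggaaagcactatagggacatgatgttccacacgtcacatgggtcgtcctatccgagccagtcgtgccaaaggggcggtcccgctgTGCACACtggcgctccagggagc
Mt2: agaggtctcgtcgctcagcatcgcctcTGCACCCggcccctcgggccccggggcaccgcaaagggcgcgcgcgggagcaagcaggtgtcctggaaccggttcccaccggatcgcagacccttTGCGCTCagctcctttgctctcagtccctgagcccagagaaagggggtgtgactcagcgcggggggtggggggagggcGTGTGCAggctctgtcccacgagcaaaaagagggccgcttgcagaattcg
Slc30a1: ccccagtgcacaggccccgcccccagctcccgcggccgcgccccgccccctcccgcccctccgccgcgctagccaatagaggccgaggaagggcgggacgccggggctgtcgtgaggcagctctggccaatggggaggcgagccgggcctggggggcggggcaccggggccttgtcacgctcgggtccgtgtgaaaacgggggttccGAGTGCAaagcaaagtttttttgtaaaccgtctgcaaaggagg
Mt1 also held a pair of matches just after its RefSeq start, at chr8:94179091-94179115, where GENCODE places the start slightly farther upstream.
Mt1 site after the start: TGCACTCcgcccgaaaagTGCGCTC

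The whole RefSeq promoter windows, 250 bases before and 50 after the start, were searched for the same core. All 9 members had a window, 11 windows in all. Mt2 held 4 matches, more than any other member. Mt1 held 3, which began 23 bases before, 3 bases after and 21 bases after the start. Slc30a10 held 3, of which 2 overlap as a palindrome, and Slc30a1 held 2. Mt3, Mt4 and 1 of the 2 windows of Slc39a8 held 1 each, and the windows of Mtf1 and Slc39a10 held 0. Among all 32851 mouse windows of this length, 25.7% held at least 1 match, 7.11% at least 2, 1.97% at least 3 and 0.517% at least 4. The coding sequences of Mt1 and Mt2 begin at chr8:94179311 and chr8:94172848, downstream of their windows. The bases between were not searched, so matches there would be missed, and the start used by these cells was not measured. A match is a run of letters and was not tested for binding here, and Mt4 held 1 match with no counts in either library. The GATA core, spelled AGATAA or TGATAA on either strand, occurred in 1 window each of Slc30a10, Slc39a8 and Slc39a10 and in 18.6% of all windows.

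Mt2 and Mt1 were the abundant members, and the other metallothioneins were at or near 0. The level of Mt2 was 7226.72 TPM in the first replicate and 4316.26 TPM in the second. TPM is a level per transcript length scaled to the same total in each library. Mt2 was therefore high in both libraries, and ranked 16 and 28 among all genes. Its mean was 5771 ± 2058 TPM (SD, n = 2). Mt1 was at 1604.98 and 3506.16 TPM, with a mean of 2556 ± 1344 TPM (SD, n = 2) and ranks of 86 and 42. Replicate 1 was the high library for Mt2 and the low library for Mt1, and the ranges of the 2 genes did not overlap.

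The ratio of Mt2 to Mt1 was 4.5 in replicate 1 and 1.23 in replicate 2. Mt2 made up 81.8% of metallothionein TPM in the first library and 55.2% in the second. The sum of the 4 genes moved far less, from 8832.58 to 7823.1 TPM, or 0.883% and 0.782% of all TPM, with a mean of 0.833% ± 0.0714 (SD, n = 2). As a share of estimated counts, which does not correct for their short transcripts, metallothioneins held 0.3044% in replicate 1, with a 95% Clopper-Pearson interval of 0.3031% to 0.3057%. In replicate 2 they held 0.2722%, with an interval of 0.2708% to 0.2736%. These intervals cover counting error only, and the spread between the libraries was wider.

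Mt3, the metallothionein known from neurons and astrocytes, had 20 and 12 counts, or 0.88 and 0.68 TPM. The exact Poisson intervals at 95% ran from 0.538 to 1.36 TPM and from 0.351 to 1.19 TPM, so a level of 1 TPM lies within both. Of 8 astrocyte and neuron markers 0 were detected, with summed levels of 0.74 and 0.62 TPM. Mt4, known from stratified squamous epithelium, had 0 counts in both libraries. A count of 0 allows up to 3 counts, or 0.215 and 0.274 TPM in the 2 libraries. Of 8 squamous markers 1 was detected, Krt10 at 3.23 and 2.36 TPM. Erythroid markers were all detected, 8 of 8, and those of macrophages and granulocytes 0 of 7, where 39.0% of protein-coding genes were. The erythroid markers include Gata1, whose reads can come from the introduced GATA1 fusion. In bulk RNA, fewer cells of a type and less RNA per cell cannot be told apart.

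The 4 metallothionein genes lie in a row on the plus strand of chromosome 8, in the order Mt4 (chr8:94137197-94139031), Mt3 (chr8:94152607-94154146), Mt2 (chr8:94172664-94173568) and Mt1 (chr8:94179082-94180327). Coordinates are GENCODE M21 on mm10. Their flanking genes within 100 kb were all low. Ogfod1, a prolyl hydroxylase of ribosomal protein, was at 8.38 and 8.93 TPM, the ciliary gene Bbs2 at 1.65 and 2.12 TPM, and the nuclear pore gene Nup93 at 3.9 and 3.43 TPM. High levels in this interval were thus seen for Mt2 and Mt1 only, among the 7 annotated genes that the tables list there.

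Mtf1, the activator, was at 7.88 and 7.05 TPM in the 2 libraries, a mean of 7.465 ± 0.587 TPM (SD, n = 2). It lies on the plus strand at chr4:124802104-124849800. Both libraries agree closely on this scale, at a level below the median of 20.47 TPM of protein-coding genes detected in both libraries. Detected means at least 1 TPM in each library. The opposite-strand gene 1110065P20Rik overlaps Mtf1 and was higher, at 41.34 and 35.56 TPM. Of the 31-base words in M21 transcripts of Mtf1 7.77% also occur in that gene, and the sources used here do not give whether counting used strand. The deposited posterior standard deviation of the Mtf1 count, which measures uncertainty in assigning reads, was 0.0 in both libraries. Whether reads of the overlapping gene entered the level of Mtf1 was not tested.

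Slc30a1, which exports zinc across the plasma membrane, was at 17.58 and 17.32 TPM. Its mean was 17.45 ± 0.184 TPM (SD, n = 2), and the libraries were nearly equal. Slc30a10, a transporter best known for exporting manganese, was at 11.33 and 9.04 TPM, with a mean of 10.2 ± 1.62 TPM (SD, n = 2). The ratio of Slc30a1 to Slc30a10 was 1.55 and 1.92, so Slc30a1 was the higher of the pair in both libraries. Slc30a1 lies at chr1:191906767-191913247 and Slc30a10 at chr1:185454848-185468762, both on the plus strand. Each overlaps an opposite-strand RNA gene, 1700034H15Rik at 0.62 and 0.35 TPM and Gm2061 at 0.46 and 0.44 TPM.

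Slc39a8, an importer of zinc, manganese, iron and cadmium, was at 28.06 and 20.63 TPM. Its mean of 24.3 ± 5.25 TPM (SD, n = 2) was the highest of the 4 transporter members. Slc39a10, a plasma membrane zinc importer, was at 2.32 and 1.68 TPM, or 2.0 ± 0.4525 TPM (SD, n = 2). Slc39a8 was 12.1 and 12.3 times Slc39a10 in the 2 libraries, a ratio that hardly moved. Slc39a8 lies at chr3:135825279-135888572 on the plus strand and Slc39a10 at chr1:46807544-46892852 on the minus strand.

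By mean level the order was Mt2, Mt1, Slc39a8, Slc30a1, Slc30a10, Mtf1, Slc39a10, Mt3 and Mt4. For each pair of neighbours in this order, both libraries of the higher gene lay above both of the lower one. Of the 9 members 7 were detected, where 39.0% of protein-coding genes were. The median member was at 10.18 TPM.

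**Figure D1:**
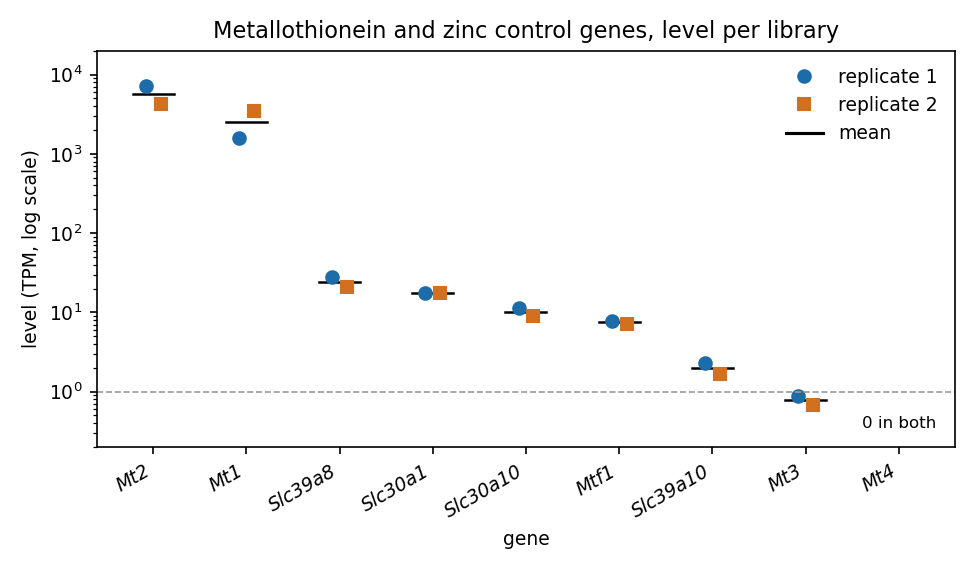
Level of each member in TPM (log axis) in replicate 1 (circles) and replicate 2 (squares), with the mean of both as a bar and a dashed line at 1 TPM. Mt2 at 7226.72 and 4316.26 TPM and Mt1 at 1604.98 and 3506.16 TPM stand above all other members, and Mt4 was 0 in both libraries.

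The rest of the zinc transporter families sets these levels in context. Of the 10 exporters Slc30a1 to Slc30a10, 5 were detected, Slc30a1, Slc30a5, Slc30a7, Slc30a9 and Slc30a10. Of the 14 importers Slc39a1 to Slc39a14, 9 were detected, where 39.0% of all protein-coding genes were. Summed importer levels were 195.7 and 205.3 TPM, and summed exporter levels 66.4 and 48.11 TPM. Slc39a7, which releases zinc from the endoplasmic reticulum, led all 24 genes at 108.73 and 123.79 TPM and was 3.87 and 6.0 times Slc39a8.

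Slc39a8 came next by mean level. Its range did not overlap that of Slc30a1 but overlapped that of Slc30a9, a mitochondrial zinc transporter, at 23.09 and 11.26 TPM. Slc30a1 also lay within the range of Slc30a9. The range of Slc30a10 overlapped that of Slc39a13, a Golgi and vesicle zinc transporter, at 11.88 and 8.29 TPM. Slc39a10 overlapped Slc30a7, a transporter of the early secretory pathway, at 1.98 and 1.4 TPM.

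Other importers between Slc39a8 and Slc39a10 were the plasma membrane importer Slc39a1 at 14.4 and 15.88 TPM, Slc39a11 at 10.68 and 13.25, Slc39a3 at 11.68 and 12.22, Slc39a6 at 4.68 and 5.11, and Slc39a9 at 2.99 and 4.2 TPM. Slc30a5, a partner in zinc loading of the secretory pathway, was at 11.31 and 7.27 TPM. Slc30a6, its partner subunit, was at 0.86 and 1.24 TPM and met the minimum in 1 library. Slc30a2 was at 0.25 and 0.58 TPM and the intestinal importer Slc39a4 at 0.27 and 0.19 TPM, while Slc39a5 and Slc39a2 stayed at or below 0.02 TPM. The neuronal vesicle gene Slc30a3, Slc30a4, the beta cell gene Slc30a8, Slc39a12 and the hepatic importer Slc39a14 were at 0 in both libraries.

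**Figure D2:**
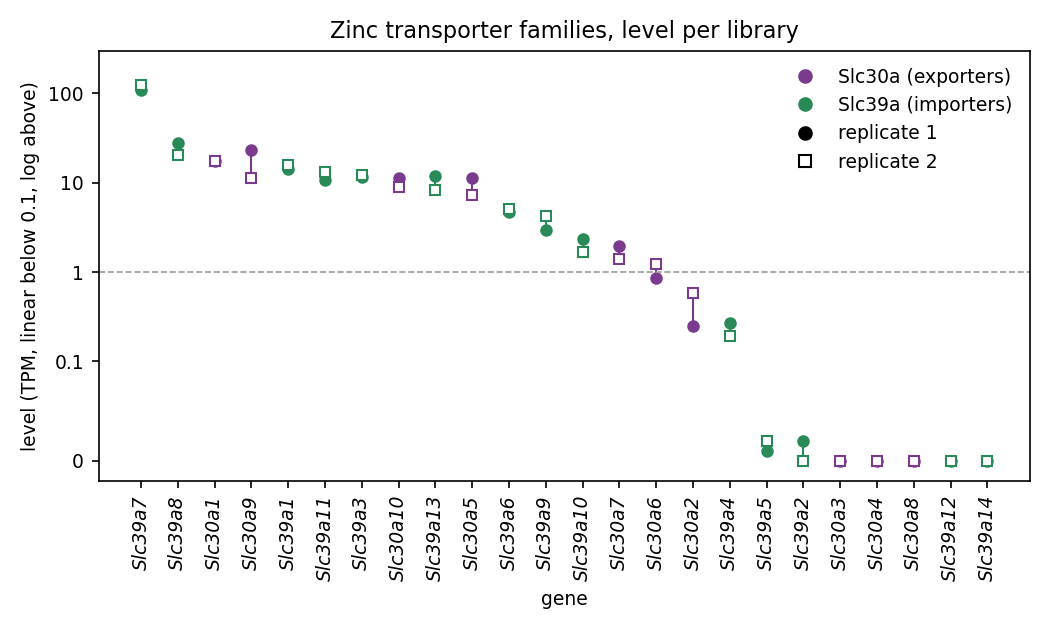
Level of the 24 zinc transporter genes in TPM (linear below 0.1, log above) in replicate 1 (filled circles) and replicate 2 (open squares), exporters in purple and importers in green, with a dashed line at 1 TPM. Slc39a7 leads at 108.73 and 123.79 TPM, Slc39a8 follows at 28.06 and 20.63 TPM, and 5 genes were 0 in both libraries.

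The libraries were then compared gene by gene, which tests these 2 libraries and not a condition. Counts were scaled by TMM and each of 10863 genes that averaged 10 counts or more was given an exact two-sided binomial test, adjusted by Benjamini-Hochberg over all of them. The test holds counting error alone, and 69.1% of genes were called at an adjusted p under 0.05. Of the 8 members tested 6 were called, near that background share, with 2 higher and 4 lower in replicate 2. The median log2 ratio of replicate 2 to replicate 1 was -0.226 over the 8 members and -0.01 over all genes tested. Called and at least 2-fold higher in replicate 2 were 7.46% of genes, and 1.68% were called and at least 2-fold lower. By ratio alone, called or not, 9.73% of genes were at least 2-fold apart. Mt1 was 2-fold higher, and no member was 2-fold lower.

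Mt1 had 36849 and 61950 counts, and after scaling was 2.4-fold higher in replicate 2 (log2 ratio 1.26, counting SE 0.00949). Mt2 had 172883 and 79370 counts and was 1.52-fold lower (log2 ratio -0.61, counting SE 0.00619). Both exact binomial p-values were too small for the software to tell from 0. The 2 genes therefore moved in opposite directions, while their summed counts, 209732 and 141320, gave a log2 ratio of -0.06. Of all genes tested 5.12% lay above Mt1 and 6.81% lay below Mt2. Erythroid markers differed between the same libraries, with 4 of 8 higher in replicate 2, 3 lower and 1 not called. The share called over all genes tested was 69.1%. Gata1, whose reads can come from the introduced GATA1 fusion, was at 1497.76 and 2429.83 TPM with a log2 ratio of 0.80. The ratio was 0.54 for Hba-a1, 0.51 for Epor and 0.44 for Gfi1b. It was -0.24 for Klf1, -0.11 for Tal1 and -0.03 for Zfpm1, and Hbb-bs, at 0.001, was not called. The part of these markers in the Mt1 and Mt2 difference was not tested.

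The counting test understates the spread of libraries. The common biological coefficient of variation between the libraries, estimated by edgeR over the genes tested, was 0.30. With a coefficient of variation of 0.1 added to counting error, 2067 genes and 3 members were called, Mt1 (adjusted p = 1.83e-08 by that test with Benjamini-Hochberg adjustment, no longer exact), Mt2 (adjusted p = 0.0195) and Mtf1. With 0.3 added, 173 genes and 0 members were called, and the adjusted p of this test, not an exact one, was 0.765 for Mt1 and 1.0 for Mt2. The opposite movement of Mt1 and Mt2 was thus larger than counting error, and neither gene was called once the spread of genes in general was allowed for, which does not show that they did not differ.

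Among the 110 genes that reached 1000 TPM in each library, 8 were at least 2-fold higher in replicate 2, Mt1 among them, and 0 were at least 2-fold lower. Within that group the SD of log2 ratios was 0.565, and 6 genes had a higher ratio than Mt1 and 3 a lower ratio than Mt2. Mt1 and Mt2 have transcripts of 540 and 556 bases in the tables, and ratios of short genes spread more. Over 456 genes above 400 and up to 600 bases the SD of log2 ratios was 1.21 and 18.2% were at least 2-fold apart. Over 908 genes longer than 5000 bases the SD was 0.457 and 4.19% were. The part of transcript length in the Mt1 and Mt2 difference was not tested.

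**Figure D3:**
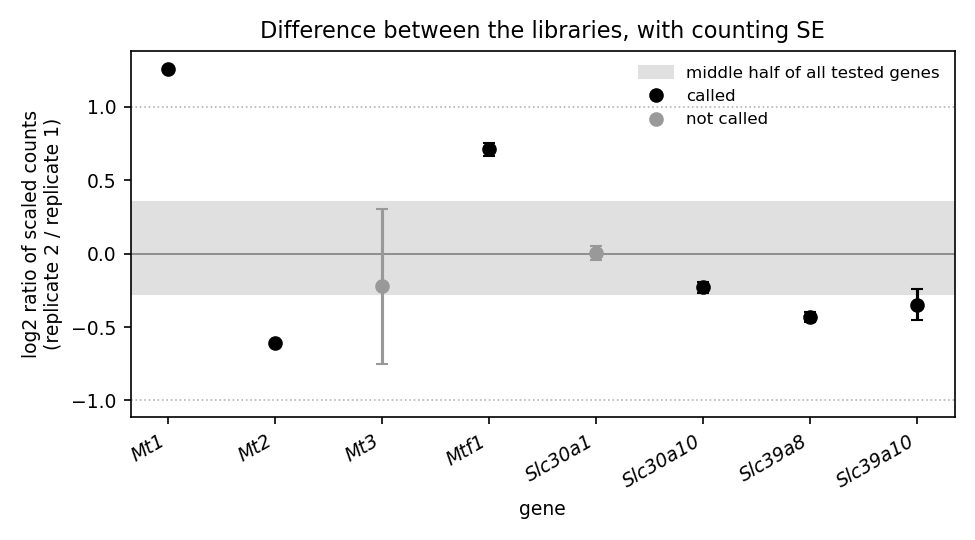
Log2 ratio of scaled counts, replicate 2 over replicate 1, for the 8 members tested, with the counting SE as bars, called members in black and others in grey. The grey band is the interquartile range of all 10863 genes, the dotted lines mark 2-fold, and Mt1 at 1.26 is the only member beyond them.

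**Figure D4:**
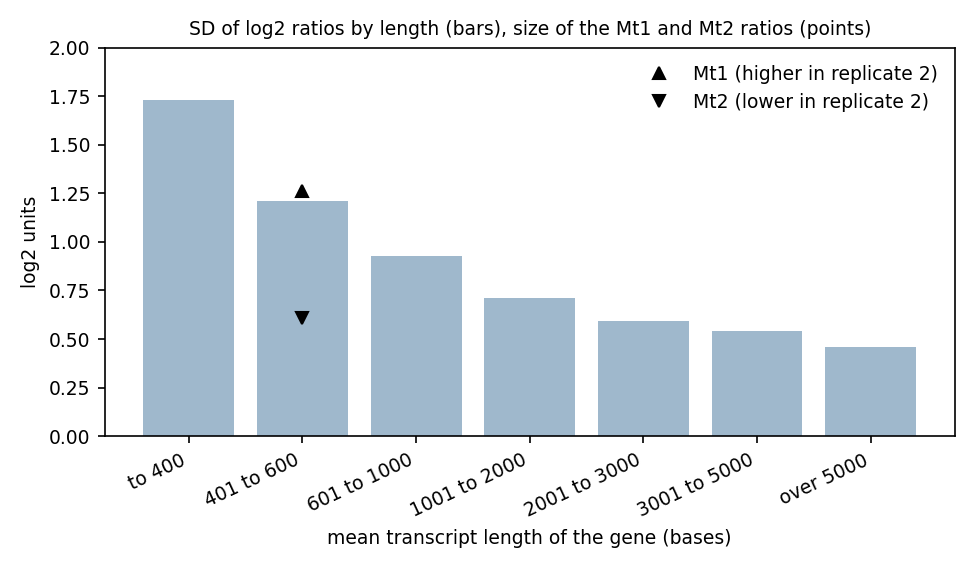
SD of log2 ratios between the libraries (bars, log2 units) for genes grouped by transcript length in bases, with the size of the Mt1 ratio (1.26) and the Mt2 ratio (0.609, taken without its sign) as triangles in their own class. The bars fall from 1.73 in the shortest class to 0.457 in the longest, and the classes were not matched for counts.

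Because Mt1 and Mt2 encode related proteins of the same length, their coding sequences are shown to see whether reads of one could be counted for the other. They are from GENCODE M21 transcripts Mt1-201 and Mt2-201, each of 186 bases with the stop codon in 3 exons, and capitals mark the bases that differ.
Mt1: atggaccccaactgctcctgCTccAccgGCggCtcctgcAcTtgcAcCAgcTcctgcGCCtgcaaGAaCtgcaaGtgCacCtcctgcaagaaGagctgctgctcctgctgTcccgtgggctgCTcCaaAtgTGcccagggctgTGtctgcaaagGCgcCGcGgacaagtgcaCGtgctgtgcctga
Mt2: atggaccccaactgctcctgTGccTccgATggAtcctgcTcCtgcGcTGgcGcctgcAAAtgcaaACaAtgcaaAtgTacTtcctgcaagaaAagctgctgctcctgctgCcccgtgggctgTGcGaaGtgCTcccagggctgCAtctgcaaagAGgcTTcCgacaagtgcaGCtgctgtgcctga
The sequences differ at 38 bases and are 79.6% identical, and the longest identical run is 20 bases. Each has 61 codons before the stop, of which 20 are cysteine codons, all 20 at the same positions. The coding sequences of Mt3 and Mt4 have 68 and 62 codons, also with 20 for cysteine.

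Among GENCODE M21 transcripts, no 31-base word was shared between Mt1 and Mt2, and no word of Mt1 occurred in any other annotated gene. The authors used GENCODE M4, where Mt1-201 has 540 bases against 549 in M21, and Mt2-201 556 against 511. The M4 transcripts were not searched. In both libraries the deposited posterior standard deviation of the gene count, which measures uncertainty in assigning reads, was 0 for both genes, as it was for the other 7 members. Of the words of Mt2 58.1% also occur in another gene, mainly in Gm45774, an antisense gene on the opposite strand in M21 that has no row in the tables. Reads from Mt2 and from this antisense gene cannot be told apart if counting ignored strand.

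Mtf1 and 3 transporter members were also called between the libraries. Mtf1 had 1740 and 1993 counts, a 1.64-fold higher scaled count in replicate 2 (adjusted p = 4.48e-50, exact binomial). Its TPM ratio ran the other way, with a log2 ratio of -0.16, since the effective length of the gene was 3666 bases in replicate 1 and 6288 bases in replicate 2. The direction of Mtf1 between the libraries therefore depends on the isoforms assigned to it. Slc39a8 had 5158 and 2680 counts and was 1.35-fold lower in replicate 2 (adjusted p = 3.67e-36, exact binomial).

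Slc39a10 had 509 and 280 counts (log2 ratio -0.35, adjusted p = 0.00195, exact binomial), and Slc30a10 had 3873 and 2314 counts (log2 ratio -0.23, adjusted p = 3.44e-09, exact binomial). Slc30a1, with 2387 and 1675 counts, was not called (adjusted p = 0.965, exact binomial). With library totals in place of TMM its log2 ratio was -0.10 and it was called. Mt3 was not called either (adjusted p = 0.77, exact binomial). Of the 7 exporters tested 2 were higher, 4 lower and 1 not called in replicate 2, and of the 10 importers 4 were higher, 3 lower and 3 not called. The share called over all genes tested was 69.1%.

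Transcripts of 4 members were split among several models, and those of Mt1, Mt2, Mt3, Mt4 and Slc30a10 had 1 model each. In Mtf1 the coding transcript Mtf1-201, of 7631 bases, held 33.54% of the gene's TPM in replicate 1 and 80.1% in replicate 2. The short model Mtf1-204, of 781 bases and annotated as a retained intron, held 42.13% and 1.17%. That difference rests on 124.41 and 2.35 estimated counts, or 7.15% and 0.118% of the counts of Mtf1, because a short model gains TPM from few reads. By counts Mtf1-201 led in both libraries, with 68.4% and 95.3%.

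In Slc39a8 the coding model Slc39a8-206 held 34.7% of TPM from 1890.83 counts in replicate 1 and 0% from 0 counts in replicate 2. The retained-intron model Slc39a8-204 held 22.17% and 49.71%, and the coding model Slc39a8-201 held 30.13% and 34.84%. The leading model of Slc39a8 thus differed between the libraries, while the level of the whole gene differed by 1.35-fold in scaled counts. Slc39a8-201, Slc39a8-204 and Slc39a8-205 had counts in both libraries.

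The isoform shares of Slc30a1 and Slc39a10 matched between the libraries. Slc30a1-202, of 677 bases, held 61.98% and 64.52% of TPM but 14.2% and 15.9% of counts, and the model Slc30a1-201, of 5244 bases, held the remainder. Slc39a10-202, annotated as a retained intron, held 54.18% and 52.8% of TPM, and the coding model Slc39a10-201 held 45.82% and 47.2%. By counts Slc39a10-201 led, with 67.1% and 68.3%.

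**Figure D5:**
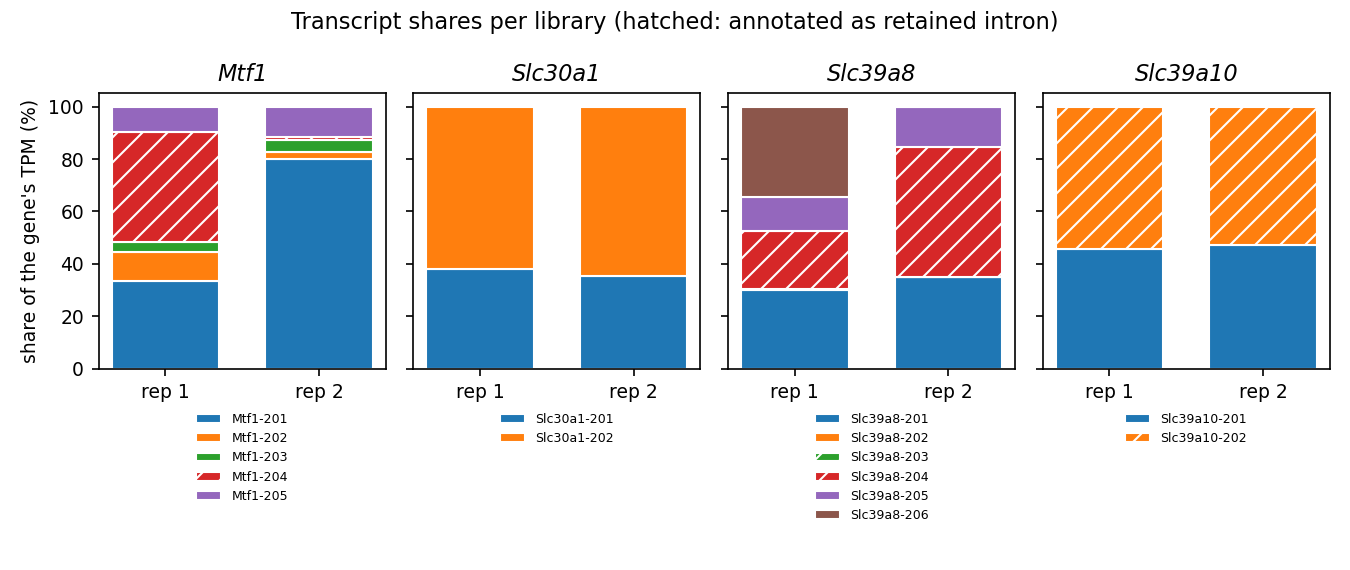
Share of each gene's TPM (percent) held by its transcript models in replicate 1 and replicate 2 for Mtf1, Slc30a1, Slc39a8 and Slc39a10, with retained-intron models hatched. Mtf1-201 goes from 33.54% to 80.1% and Slc39a8-206 from 34.7% to 0%, while Slc30a1 and Slc39a10 keep nearly the same shares.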

How the data were processed

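RNA-seq of polyadenylated RNA was deposited for 2 libraries of G1E-ER4 cells, with a gene and a transcript table each. The deposited expected counts are estimated counts and can hold fractions of a read. TPM and FPKM are levels per length deposited by the authors. Isoform shares were deposited as a percent of each gene's TPM. The posterior standard deviation of each count was also deposited. The authors used mm10 with GENCODE M4, per the labels and readme files. The sources used here give no aligner, quantifier or strand setting. Names and coordinates came from GENCODE M21 by identifier, with 42462 genes matched. Promoter windows came from RefSeq on GRCm38.p6.

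The members and gene lists were chosen with earlier results of these data known. The genes named were all members, both zinc transporter families, the 4 highest of each other list by mean TPM, genes within 100 kb of the metallothioneins, and for Mt1 and Mt2 the 3 protein-coding genes nearest in level. A gene that this rule names is not reported here. The erythroid markers and the undetected metal and oxidative stress genes were named in addition. Krt10, Atox1 and the counts of abundant genes were singled out after their values were seen. Estimated counts were rounded for tests. edgeR 4.0.16 in R 4.3.3 gave the TMM scaling and the coefficient of variation, and DESeq2 1.42.0 gave alternative size factors. Libraries were compared by an exact binomial test in scipy 1.17.1, for genes averaging 10 counts or more, with Benjamini-Hochberg adjustment at 0.05. Intervals and the floor of 3 counts cover counting error only, since PCR reads are not independent molecules. With 68901065 and 51923117 counts, depth limits members and transporters with few counts, such as Mt3 and Mt4, and not Mt1 or Mt2. Alternatives were other TPM minimums, units, posterior means, scalings, count filters and added variation, leaving out each library and, chosen after seeing the data, ratios of TPM.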

Additional observations from a re-analysis of the deposited data

How the results depend on the processing

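No paired analysis was possible because the labels give 1 group. Apart from leaving out a library, 95 of 121 alternative values were scored as unchanged. The score covers direction, side of the threshold and, for values with no test, a size within the spread. The 95 include counts that did change. With minimums of 0.5 and 5 TPM, 8 and 6 members, 6 and 4 exporters and 9 and 6 importers were detected. The 95 also include levels from FPKM rescaled to the TPM total, which repeat TPM by construction. An added coefficient of variation leaves a log2 ratio itself unchanged. Leaving out 1 of 2 libraries gives the other library's value, which lies within 1 SD of the mean by construction and shows nothing of stability. The ratio of Mt2 to Mt1 was then 1.23 or 4.5 and the share of Mtf1-201 33.54% or 80.1%. The metallothionein share was 0.833% of TPM, 0.288% of estimated counts and 1.07% of TPM without globin, mitochondrial and ribosomal protein genes. The count of genes differing between the libraries fell from 7502 to 2067 with a coefficient of variation of 0.1 added and to 173 with 0.3 added. Members differing fell from 6 to 3 and to 0, and members differing and 2-fold apart from 1 to 0 with 0.3 added, since added variation widens the error by construction. The log2 ratio of Slc30a1 was -0.103 with library totals, where 7 members were called, 3065 genes were higher and 4756 lower in replicate 2, against 3769 and 3733 with TMM, and the median of all genes moved from -0.0102 to -0.117. With no count filter 48.5% of genes were called, with the same 6 members. The log2 ratio of Mtf1 was -0.161 from TPM, which divides by each library's effective length. Depth limits Mt3 (20 and 12 counts), Mt4 (0 counts), the low transporters Slc30a2, Slc39a4, Slc39a5 and Slc39a2, with 0 to 38 counts, and Mtf1-204 in replicate 2.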

Other observations

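Other metal and stress genes gave a mixed picture. Of 11 copper handling genes 9 were detected, where 39.0% of protein-coding genes were. They were led by the copper-zinc superoxide dismutase Sod1 at 734.68 and 513.30 TPM and the mitochondrial copper chaperone Cox17 at 508.71 and 314.91 TPM. Sco2, a copper chaperone of cytochrome oxidase, was at 83.38 and 79.00 TPM, and the cytosolic copper chaperone Atox1 at 18.61 and 134.55 TPM. Atox1 had 427 and 2355 counts, a log2 ratio of 2.98, larger than that of Mt1. In the copper list 3 genes were higher in replicate 2, 5 lower and 3 not called, where 69.1% of all genes tested were called.

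Of 11 metal and oxidative stress genes 7 were detected, where 39.0% of protein-coding genes were. Gclm, a subunit of the enzyme that starts glutathione synthesis, was at 683.66 and 541.10 TPM, and its catalytic partner Gclc at 24.15 and 21.61 TPM. The thioredoxin reductase Txnrd1 was at 81.65 and 86.45 TPM and Keap1, which restrains the antioxidant factor NRF2, at 84.96 and 78.18 TPM. Of the genes not detected, Nqo1 was at 0.5 and 0.27 TPM and Slc7a11 at 0.02 TPM in both libraries. The heat shock genes Hspa1a and Hspa1b, near-identical copies also induced by metals, were at 0 TPM in both libraries and at 0.34 and 0.36 TPM. The deposited posterior standard deviation of the count was above 0 for both Hspa1a and Hspa1b, so the split of reads between them is uncertain. A list of 8 glucocorticoid response genes was kept because glucocorticoids also induce Mt1 and Mt2. All 8 were detected, where 39.0% of protein-coding genes were, and the list was picked with earlier results known. They were led by Klf9 at 35.37 and 30.12 TPM, the receptor gene Nr3c1 at 33.56 and 28.00 TPM, Tsc22d3 at 30.17 and 30.46 TPM and Per1 at 25.22 and 26.60 TPM.

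Protein-coding genes near to Mt1 in level over the 2 libraries, by distance of log2(TPM + 1), included Eef2 at 1530.38 and 2923.03 TPM and Rps16 at 1753.65 and 2623.58 TPM. Nearest to Mt2 were Rps13 at 6214.6 and 4214.05 TPM, Rps19 at 5925.55 and 4470.13 TPM and Pfn1 at 5952.62 and 4585.14 TPM. With 2 libraries this likeness rests on 2 values per gene.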
